A study of Mus musculus with 3 samples.

Results

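The nuclear-encoded respiratory chain genes are the nuclear genes for subunits of complexes I, III and IV and of the ATP synthase (complex V). They were chosen by symbol, as every gene of the deposited gene lists whose symbol begins with Nduf and a, b, c, s or v and a digit, with Uqcr, with Cox4 to Cox8 and a, b or c, or with Atp5, leaving out symbols with -ps. The rule found 78 of 27998 genes. Of these, 35 encode complex I subunits, 8 complex III, 18 complex IV and 15 complex V, and Atp5s and Atp5sl encode related proteins that are not subunits. The 13 protein genes of the mitochondrial genome, whose symbols begin with mt-, are given beside them. Counts came from 3 droplet libraries of dorsal skin of C57BL/6 mice that carried no other allele or treatment in the labels, 1 library each of neonatal, 3-week and 2-month mice. The skin was digested with collagenase D and DNase1 and the libraries were made with a kit that counts the 3' ends of transcripts. How many animals entered a library is not given, so each age is 1 library and differences between ages have no replicate check.

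The respiratory chain carries electrons from NADH and succinate to oxygen and pumps protons across the inner mitochondrial membrane, and the ATP synthase lets the protons return and makes ATP. Complexes I, III, IV and V hold subunits from both genomes, whereas complex II has nuclear subunits only. Several nuclear subunits have paralogues: Cox6a2, Cox7a1 and Cox8b are known as heart and muscle isoforms, Cox6b2, Cox7b2 and Cox8c as testis isoforms, and Ndufa4l2 is known as a paralogue of Ndufa4 that is induced in low oxygen. Ndufa4 carries a complex I name, but its protein is now placed in complex IV.

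The matrices held 84086755, 113874172 and 98432611 UMIs (unique molecules counted) at the neonatal stage, 3 weeks and 2 months, and 7911, 8900 and 9332 barcodes passed the limits of 300 genes, 500 UMIs and 10% mt- UMIs. Cells were assigned to classes by marker genes that include no member, and a name such as fibroblast-like means only that those markers led. The fibroblast-like class was the largest, with 6656, 5787 and 4971 cells, and all 8 of its markers were present at every age. A further 514, 1236 and 1353 barcodes stayed without a class. Libraries shared 23 to 31 cell barcodes in pairs, and leaving these out did not change the counts of members called in the mural, keratinocyte or dermal sheath contrasts.

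The promoters of 66 members were found in a RefSeq table of the GRCm38.p6 build, each as 300 bases from 250 before to 50 after the start of the gene. The 8-letter cores of 3 factors or factor families were searched on both strands: GCATGCGC, read by NRF1, CCGGAAGT, read by GABP and other ETS factors, and ATGGCGGC, read by YY1. The NRF1 core stood in 9 of the 66 member promoters (13.6%) and in 3.05% of 27025 genes in the table, the GABP core in 5 (7.58%, against 4.31%) and the YY1 core in 7 (10.6%, against 2.60%). These matches describe letters and are not measured sites. The stretches from 110 bases before to 10 after the start are shown for Cox8a and Uqcr11, which had the largest rises in mural-like cells, and for Atp5g1 and Atp5g2, which encode the same mature c subunit of the ATP synthase but had different courses with age. All read 5′ to 3′ on the strand of the gene, and capitals mark the matches to the 3 cores.
Cox8a, chr19:7217607-7217726, minus strand: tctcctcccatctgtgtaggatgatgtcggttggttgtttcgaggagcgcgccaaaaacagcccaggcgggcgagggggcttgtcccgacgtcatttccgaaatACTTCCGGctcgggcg
Uqcr11, chr10:80406812-80406931, minus strand: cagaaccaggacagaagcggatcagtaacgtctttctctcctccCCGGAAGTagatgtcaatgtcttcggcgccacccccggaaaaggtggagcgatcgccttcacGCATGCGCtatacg
Atp5g1, chr11:96075622-96075741, minus strand: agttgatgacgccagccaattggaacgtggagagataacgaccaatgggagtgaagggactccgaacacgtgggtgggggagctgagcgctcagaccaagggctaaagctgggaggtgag
Atp5g2, chr15:102671038-102671157, minus strand: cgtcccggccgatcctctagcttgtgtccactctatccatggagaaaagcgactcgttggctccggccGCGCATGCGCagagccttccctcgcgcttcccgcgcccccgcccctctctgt
The Cox8a stretch holds a GABP core, the Uqcr11 stretch a GABP and an NRF1 core, and the Atp5g2 stretch an NRF1 core that overlaps itself on the other strand. The Atp5g1 stretch holds none of these letters.

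Mural-like cells were those gated by markers of pericytes and smooth muscle. Summed over the 78 members, they were at 17748, 24974 and 21580 CPM at the neonatal stage, 3 weeks and 2 months. CPM are UMI counts per 1000000 UMIs of a profile, so these sums are 1.77%, 2.50% and 2.16% of their UMIs. Per cell the median was also higher in mural-like cells: 1.61%, 2.45% and 2.08% of the UMIs of a mural-like cell and 1.36%, 1.22% and 0.960% of those of a fibroblast-like cell were of members. Keratinocyte-like cells were at 19928, 18173 and 14396 CPM, and fibroblast-like cells at 14708, 12862 and 9605. Mural-like and keratinocyte-like cells were above fibroblast-like cells in all 3 libraries. Schwann-like cells went from 19537 at the neonatal stage to 13717 and 11729, and T or innate lymphoid-like cells from 16567 to 11985 and 12531. Endothelial-like cells (13976, 12096 and 11268), macrophage or monocyte-like cells (14022, 13273 and 10065) and mast-like cells (12678 and 9542 at the first 2 ages) lay within or near the fibroblast-like range.

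**Figure D1:**
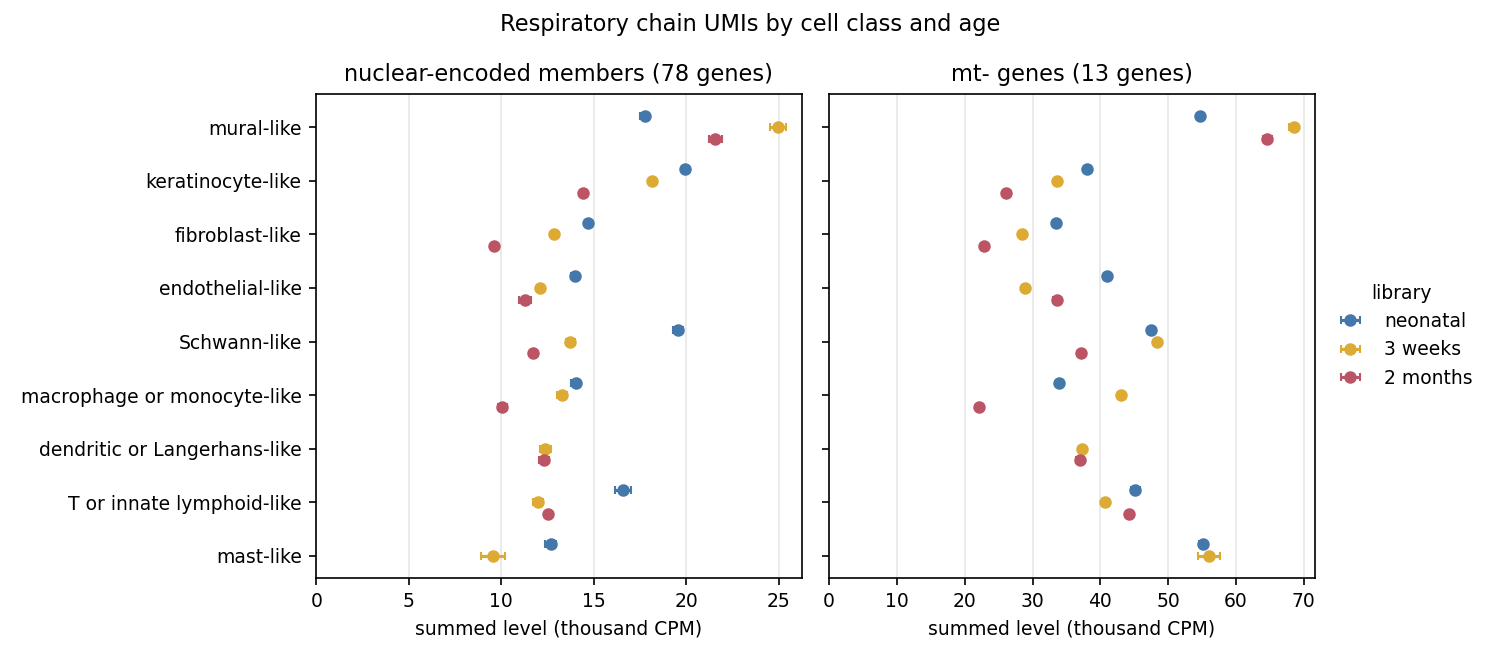
Summed CPM of the 78 nuclear members and of the 13 mt- genes in each marker-gated class, 1 point per library with exact 95% Poisson intervals; colours mark the 3 ages. Mural-like cells stand highest for the nuclear members at 3 weeks and 2 months, and mast-like and mural-like cells stand highest for the mt- genes.

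The mt- genes did not rank the classes in the same order. Their sum was 54660, 68501 and 64634 CPM in mural-like cells, 38046, 33634 and 26021 in keratinocyte-like cells and 33430, 28470 and 22888 in fibroblast-like cells. Mast-like cells, with 55179 and 56009, were above fibroblast-like cells for the mt- genes and below them for the nuclear members in both libraries. The number of mt- UMIs per member UMI was 1.91, 1.85 and 1.81 in keratinocyte-like cells, 2.27, 2.21 and 2.38 in fibroblast-like cells, 3.08, 2.74 and 3.00 in mural-like cells and 4.35 and 5.87 in mast-like cells. The limit of 10% mt- UMIs acts on these values directly: it removed 26.7% and 16.7% of mast-like barcodes, 0.690%, 7.07% and 9.27% of mural-like ones and 1.22%, 2.59% and 4.55% of fibroblast-like ones.

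Class differences were tested with edgeR's quasi-likelihood test on UMI counts summed per library and class, with the library as a block and Benjamini-Hochberg adjustment over 12138 genes, called at an adjusted p under 0.05. The 3 libraries are the replicates, and the labels do not say that they stem from separate animals of a group. Of the 78 members, 72 had enough counts to be tested. The 6 others, Atp5s, Cox6a2, Cox7a1, Cox7b2, Cox8b and Cox8c, were too low in these profiles.

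In mural-like cells 31 of the 72 tested members were called higher than in fibroblast-like cells and 0 lower (43 and 1 at an unadjusted p under 0.05, and 50 and 0 with DESeq2, another count test), where 10.1% of all genes tested were called higher and 13.5% lower. The median member was higher by 0.60 on the log2 scale, against -0.27 for all genes. All 4 complexes took part: 14 of 35 complex I subunits, 4 of 8 complex III, 6 of 13 complex IV and 7 of 15 complex V subunits were called higher, with medians of 0.51, 0.77, 0.66 and 0.53. Of the 13 mt- genes, 9 were called higher, from mt-Nd5 (0.79) to mt-Nd4 (1.29), with a median of 0.87.

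Cox8a, the ubiquitous isoform of complex IV subunit 8, showed the largest rise. It was at 1049, 1534 and 1331 CPM in mural-like cells at the neonatal stage, 3 weeks and 2 months, and at 401, 384 and 302 in fibroblast-like cells. Every mural-like profile was above every fibroblast-like one, a log2 fold change of 1.68 ± 0.21 (SE, 3 libraries; adjusted p = 1.08e-05, edgeR's quasi-likelihood test). Uqcr11, a small complex III subunit, was at 172, 359 and 315 in mural-like and 81.3, 119 and 73.3 in fibroblast-like cells, again without overlap, a log2 fold change of 1.45 ± 0.30 (adjusted p = 0.00149, edgeR's quasi-likelihood test). Ndufb9, an accessory subunit of the membrane arm of complex I, was at 315, 583 and 547 against 203, 172 and 132, a log2 fold change of 1.36 ± 0.28 (adjusted p = 0.00112, edgeR's quasi-likelihood test). Its exons overlap those of the annotated gene Gm49356 on the same strand, so its reads may be split between the 2 annotations. Among the others called were Ndufb8 (1.27), Atp5b, the catalytic beta subunit of the ATP synthase (1.26), Uqcrc2, a core protein of complex III (1.09), and Cox6a1 (1.03).

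These calls rested on 144, 92 and 137 cells, and their number changed more than the median did when a library was left out. Without the 3-week library 1 member was called higher (median 0.57), without the 2-month library 3 (median 0.54), and without the neonatal library 50 (median 0.78). At an unadjusted p under 0.05 in edgeR's test, 22 were higher without the 3-week library and 23 without the 2-month library, and 0 were lower in each. With at most 5% mt- UMIs 4 members were called higher and the median was 0.21 (all genes, -0.36), below the 0.57 without the 3-week library. The median mural-like cell had 5.21%, 7.08% and 6.52% mt- UMIs, so this limit removed most mural-like cells at every age. The 3-week profile fell below the minimum of 25 cells. The rise of the members was thus smaller in the mural-like cells with few mt- UMIs, and the cause was not tested. Markers of other sources moved with the class and the age: the summed red blood cell markers in mural-like cells were 2299, 17824 and 40.0 CPM against 2321, 3556 and 914 in fibroblast-like cells, and the summed fibroblast markers were 2259, 1130 and 754 against 47368, 159705 and 157563. Scaling without mt-, ribosomal protein and haemoglobin genes left the count at 31.

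**Figure D2:**
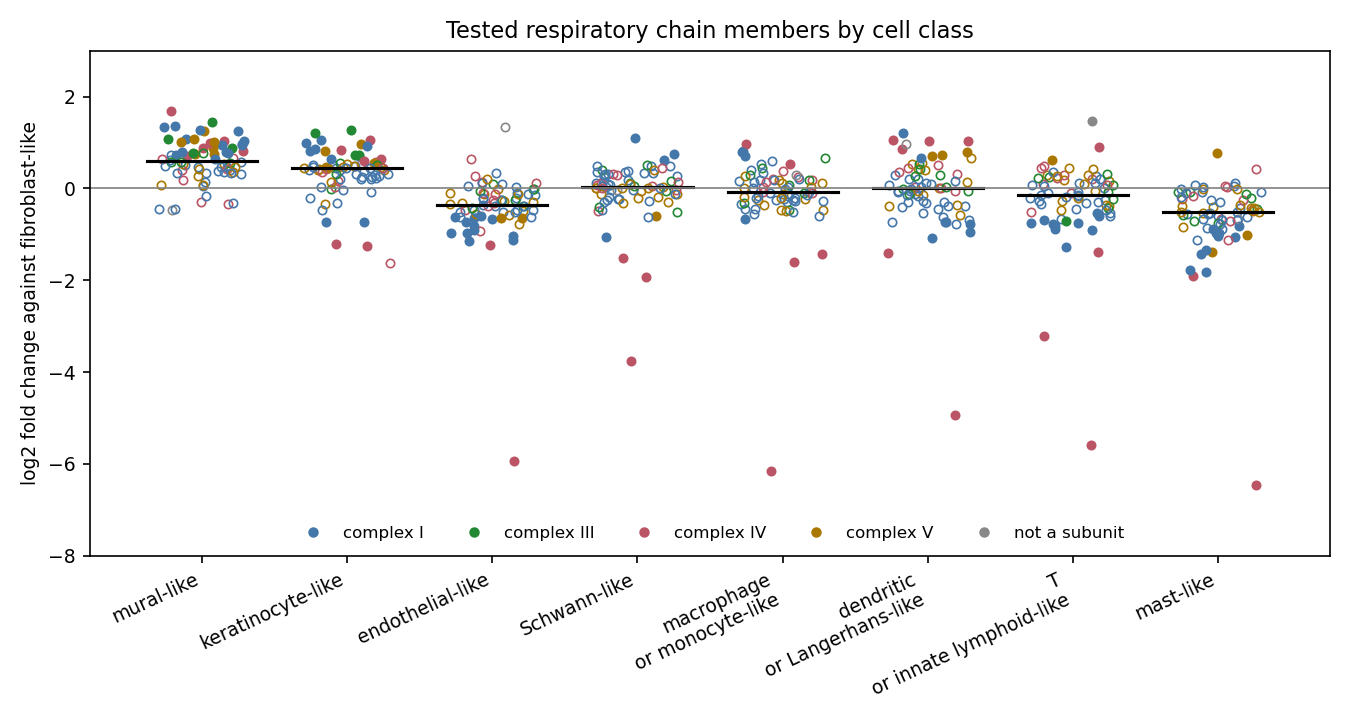
Log2 fold change of each tested member against fibroblast-like cells, 1 point per member, coloured by complex; bars mark class medians and filled points passed the test (adjusted p under 0.05, edgeR's quasi-likelihood test). Mural-like cells show 31 members called higher and 0 lower, endothelial-like cells 0 higher and 16 lower.

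Keratinocyte-like cells had 19 members called higher and 4 lower, beside 18.2% and 26.8% of all genes. The median member was higher by 0.44 (all genes, -0.09). Called higher were 7 of 35 complex I subunits, 4 of 8 complex III, 4 of 13 complex IV and 4 of 15 complex V subunits. Uqcr11 was at 371, 248 and 175 CPM against 81.3, 119 and 73.3 in fibroblast-like cells, a log2 fold change of 1.26 ± 0.30 (adjusted p = 0.00180, edgeR's quasi-likelihood test). Uqcrc1, a core protein of complex III, was at 245, 291 and 198 against 119, 92.1 and 65.4 (log2 fold change 1.22 ± 0.26). Cox5a, a complex IV subunit, was at 442, 399 and 264 against 175, 177 and 101 (1.07 ± 0.25). For each of these 3 genes every keratinocyte-like profile was above every fibroblast-like one. Of the mt- genes 1 was called, mt-Nd3 (log2 fold change -0.74). The fibroblast markers summed to 257, 756 and 462 CPM in these cells. The count of members called higher was 5 without the 3-week library, 6 without the 2-month library and 32 without the neonatal library.

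The members called lower in keratinocyte-like cells were Cox6b2 (log2 fold change -1.24 ± 0.38), Cox6c (-1.21 ± 0.24), Ndufa13 (-0.74 ± 0.26) and Ndufa2 (-0.74 ± 0.19), the last a complex I subunit. Ndufa13, also known as GRIM-19, was at 125, 175 and 138 CPM in keratinocyte-like and 188, 265 and 173 in fibroblast-like cells, lower in each library. Cox6b2 was low in both classes, at 10.6, 5.98 and 5.92 against 17.0, 10.1 and 16.4 CPM.

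In endothelial-like cells 0 members were called higher and 16 lower, beside 12.1% and 16.0% of all genes. At an unadjusted p under 0.05 in edgeR's test they were 1 and 26, and with DESeq2 2 and 18. The median was -0.36 (all genes, -0.18). The test scales profiles by TMM factors, 1.12, 1.12 and 1.13 for endothelial-like and 0.97, 0.84 and 0.79 for fibroblast-like profiles. A higher factor lowers the scaled level. In CPM, without these factors, the summed members were at 13976, 12096 and 11268 against 14708, 12862 and 9605. They were thus below fibroblast-like cells at the neonatal stage and 3 weeks and above them at 2 months. Of the 16, 12 belonged to complex I, of which 35 subunits were tested. Ndufc1, an accessory complex I subunit, was at 40.6, 51.4 and 38.5 CPM against 72.0, 92.0 and 58.1 in fibroblast-like cells, lower in each library (log2 fold change -1.14 ± 0.25, adjusted p = 0.00162, edgeR's quasi-likelihood test). Of the mt- genes, mt-Co1 was called higher and mt-Nd3 and mt-Cytb lower. The profiles held 36, 87 and 39 cells. The count was 0 without the 3-week library (8 lower at an unadjusted p under 0.05 in edgeR's test), 4 without the 2-month library and 10 under a stricter class gate.

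T or innate lymphoid-like cells had 3 members called higher and 14 lower, beside 17.9% and 25.5% of all genes (median -0.14; all genes, -0.24). Both shares were smaller among the members than among all genes. Of the 14, 10 were among the 35 complex I subunits tested, a share near the 25.5% of all genes. Ndufc1 was among them, at 33.9, 30.4 and 39.8 CPM (log2 fold change -1.27 ± 0.26). The 3 higher ones were Atp5sl (1.46 ± 0.56), Cox5a (0.90 ± 0.26) and Atp5d, the delta subunit of the ATP synthase (0.62 ± 0.18). Atp5d was at 816, 652 and 591 CPM in these cells and at 462, 377 and 294 in fibroblast-like cells. The 14 became 2 without the 3-week library and 6 without the 2-month library.

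Mast-like cells, tested on 2 libraries with 88 and 65 cells and a median of 4767.5 and 753 UMIs per cell, had 1 member called higher and 14 lower, beside 9.74% and 15.3% of all genes. The median member, -0.51, was close to that of all genes, -0.48. The 1 higher member was Atp5f1, the b subunit of the ATP synthase stalk, at 450 and 589 CPM against 273 and 229 in fibroblast-like cells (log2 fold change 0.78 ± 0.26). In contrast to the nuclear members, mt-Co1, mt-Co2, mt-Co3 and mt-Nd5 were called higher, by 0.64 to 0.95. These were the mt- genes called there. Against the same fibroblast-like profiles, mt-Co1 was also called higher in mural-like (1.13), T or innate lymphoid-like (0.67) and endothelial-like cells (0.65). It was likewise higher in dendritic or Langerhans-like (0.90) and macrophage or monocyte-like cells (0.60), but not called in Schwann-like or keratinocyte-like cells. T or innate lymphoid-like cells also had mt-Co3 called higher (0.50), and macrophage or monocyte-like cells mt-Cytb lower (-0.63).

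Dendritic or Langerhans-like cells, tested on the 3-week and 2-month libraries, had 9 members called higher and 6 lower, beside 14.4% and 18.2% of all genes. Ndufa6, an accessory complex I subunit, was at 309 and 289 CPM against 105 and 131 in fibroblast-like cells (log2 fold change 1.22 ± 0.27), and Cox6b1 (1.05 ± 0.23) and Cox5a (1.03 ± 0.29) were also higher, whereas Ndufc1 was lower (-1.07 ± 0.30). Macrophage or monocyte-like cells had 5 members higher and 4 lower, beside 15.9% and 21.2%. Cox5a (0.96 ± 0.26), Ndufb7 (0.82 ± 0.31) and Ndufb8 (0.79 ± 0.22) led the rises there. Schwann-like cells had 3 higher and 5 lower, beside 11.4% and 17.5%. Ndufv2, part of the NADH-binding module of complex I, was at 270, 258 and 236 CPM against 122, 94.1 and 68.3, above fibroblast-like cells in each library (1.09 ± 0.20, adjusted p = 0.000375, edgeR's quasi-likelihood test). Ndufb8 (0.76 ± 0.22) and Ndufv1 (0.63 ± 0.21), the partner of Ndufv2 in that module, were the others. The shares of members called in these 3 classes were below those of all genes in both directions. Without the 3-week library 0 members were called in Schwann-like cells (3 higher and 2 lower at an unadjusted p under 0.05 in edgeR's test) and 1, lower, in macrophage or monocyte-like cells. Without the 2-month library 1 higher and 1 lower were called in Schwann-like cells and 2, both lower, in macrophage or monocyte-like cells. Without the neonatal library 14 were called higher and 10 lower in dendritic or Langerhans-like cells, and 9 lower in Schwann-like cells. The neonatal library had no dendritic or Langerhans-like profile (5 cells), so that fit differed only in the profiles of other classes.

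All class contrasts share the same fibroblast-like profiles as reference, and several members recurred across them. Ndufb8 was called higher in 5 of the 8 classes, Cox5a and Cox6b1 each in 4, and Cox6b2 lower in 4. Cox6c and Ndufa4l2, both complex IV members, recurred most. Cox6c, a small nuclear subunit of the complex, had the highest mean level of the members in fibroblast-like cells over the 3 ages, at 1339, 799 and 477 CPM, and was called lower in 7 of the 8 classes. It was at 543, 418 and 304 in keratinocyte-like, 593, 328 and 248 in Schwann-like and 378, 328 and 208 in macrophage or monocyte-like cells, below fibroblast-like cells in each library. In mural-like cells it was at 607, 861 and 698, on both sides of the fibroblast-like values (log2 fold change -0.33 ± 0.23, adjusted p = 0.345, edgeR's quasi-likelihood test). After Cox6c, the members with the highest levels in fibroblast-like cells were Ndufa4l2, Uqcrh, the hinge protein of complex III (583, 402 and 407), Atp5g2 (675, 342 and 274) and Atp5d.

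Ndufa4l2 was at 70.0, 712 and 722 CPM in fibroblast-like cells, at 797, 781 and 856 in mural-like cells and, in keratinocyte-like ones, at 161, 171 and 195. In CPM fibroblast-like cells were below mural-like cells in each library, most at the neonatal stage, whereas with the TMM scaling of the test mural-like cells were higher in 1 of the 3 libraries, and the contrast did not pass the test (log2 fold change 0.65 ± 0.92, adjusted p = 0.665, edgeR's quasi-likelihood test). Schwann-like cells were at 96.7, 19.0 and 1.5, above fibroblast-like cells at the neonatal stage and below them later. The remaining classes were at most at 31.8 CPM, in dendritic or Langerhans-like cells at 2 months. Endothelial-like cells were at 0.923, 17.6 and 12.0, and T or innate lymphoid-like cells at 0, 11.2 and 19.4 CPM. The fibroblast markers summed to 237, 1416 and 1095 CPM in the latter, and how far free RNA of fibroblasts adds to such low values was not tested. Ndufa4l2 was called lower in 6 of the 8 classes, from -3.76 ± 1.10 in Schwann-like to -6.47 ± 1.82 in mast-like cells (log2 fold changes). Its partner Ndufa4 was at 181, 276 and 142 in fibroblast-like, 85.1, 268 and 197 in mural-like and 335, 355 and 245 in keratinocyte-like cells and was called in none of the 8 classes. Ndufa4l2 made up 27.9%, 72.0% and 83.6% of the UMIs of the pair in fibroblast-like cells and 90.4%, 74.4% and 81.3% in mural-like cells. In keratinocyte-like cells its share was 32.4%, 32.4% and 44.4%.

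The share of cells with a Ndufa4l2 UMI, after each cell was thinned to 1500 UMIs, was 8.21%, 47.8% and 43.7% in fibroblast-like cells and 65.3%, 57.6% and 68.7% in mural-like cells. Without thinning the shares were 28.2%, 71.0% and 64.6%, and 91.7%, 78.3% and 84.7%. T or innate lymphoid-like cells, in which the gene was low, had 0%, 1.09% and 1.23% after thinning and 0%, 1.60% and 2.20% without. Their median depths were 8774, 2867.5 and 2442 UMIs, against 8762.5, 12171 and 10167 in fibroblast-like cells. Whether they express the gene themselves was not tested. Thinning left out 26, 19 and 109 fibroblast-like, 0, 0 and 3 mural-like and 0, 5 and 65 T or innate lymphoid-like cells. At the neonatal stage 0 of 40 T or innate lymphoid-like cells had a UMI, which allows a share of up to 8.81% (exact binomial bound). This bound covers the counting of cells within that library and not differences between animals. The neonatal fibroblast-like share was just under that bound after thinning (8.21%) and above it without (28.2%), at near equal median depths.

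**Figure D3:**
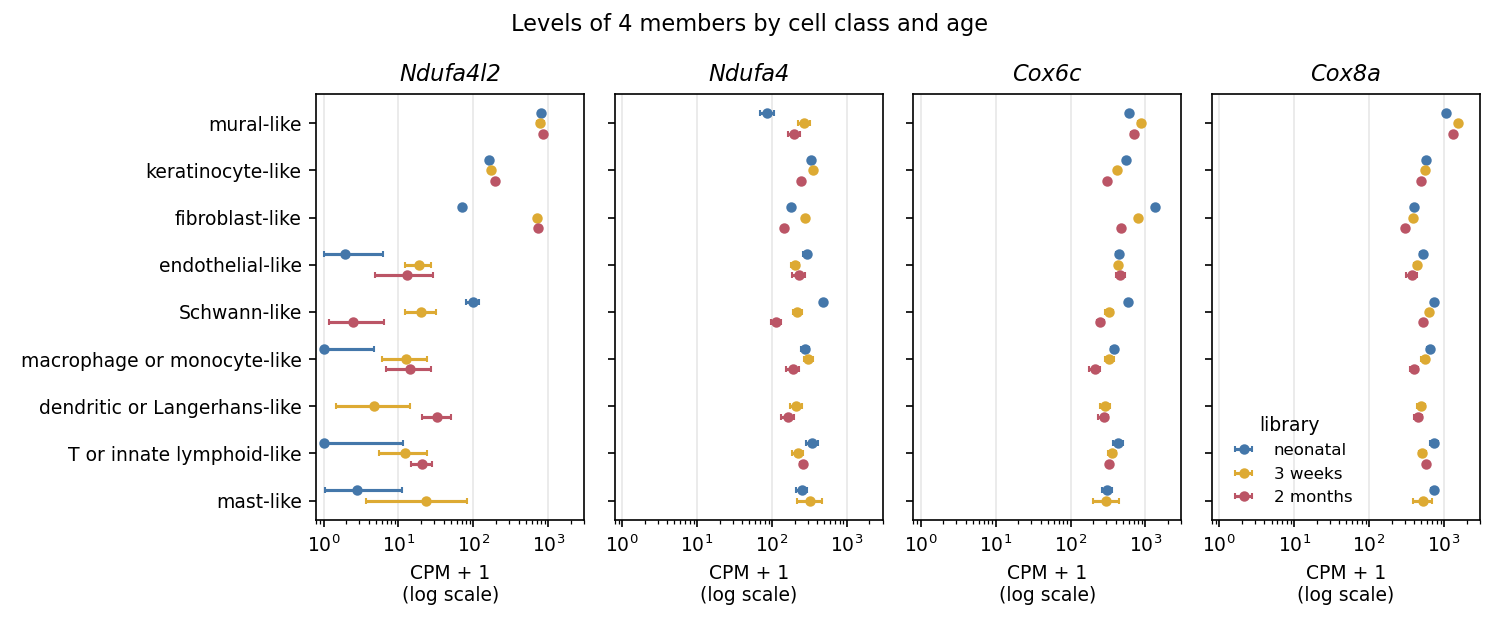
CPM plus 1 on a log axis for Ndufa4l2, Ndufa4, Cox6c and Cox8a by class, 1 point per library with exact 95% Poisson intervals, coloured by age. Ndufa4l2 is high in mural-like cells at every age and in fibroblast-like cells at 3 weeks and 2 months, and Cox8a is highest in mural-like cells.

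The muscle isoforms and the testis isoforms Cox7b2 and Cox8c were low in fibroblast-like cells, whereas the testis isoform Cox6b2, at 17.0, 10.1 and 16.4 CPM, was high enough to be tested. Cox8c had 0 UMIs in all classes. In fibroblast-like cells Cox8b was at 0.0935, 0.0551 and 2.45 CPM (6, 4 and 139 UMIs), so that at 2 months it made up 0.806% of the Cox8 family and Cox8a the remainder. Cox6a2 was at 0.106 to 0.248 CPM, Cox7b2 at 2 to 4 UMIs in each library and Cox7a1 at 1.07, 3.10 and 1.09 CPM. Cox6a1 made up 99.9% of the Cox6a family and Cox7b 99.9% or more of the Cox7b pair at each age. In the 15 skeletal muscle-like cells of the neonatal library, Cox8b and Cox6a2 had 2 UMIs each, beside 145 of Cox8a. The Cox7a family was divided between Cox7a2 (42.2%, 54.4% and 30.8% in fibroblast-like cells) and Cox7a2l, a factor that ties complexes III and IV into supercomplexes (57.6%, 44.8% and 69.0%). Outside the symbol rule, Cox4i2, an isoform of the large nuclear subunit of complex IV, was at 553, 276 and 318 CPM in mural-like and 15.8, 8.81 and 6.03 in fibroblast-like cells, a log2 fold change of 5.09 ± 0.44 (adjusted p = 1.78e-07, edgeR's quasi-likelihood test), whereas the general isoform Cox4i1 differed by 0.62 ± 0.18 (adjusted p = 0.0183).

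Other genes of the pathway were read in the same contrasts. In mural-like cells 8 of 12 subunits and carriers that the symbol rule leaves out were called higher, among them Cycs, cytochrome c (log2 fold change 1.48), and Atpif1, an inhibitor of the ATP synthase (1.83). Of 15 Krebs cycle genes 8 were higher, led by Idh3a (1.46), Idh3b (1.30) and Idh3g (1.25), the 3 subunits of one dehydrogenase, and 10 of 18 glycolysis genes, led by Pfkl and Ldhb (2.25 each), where 10.1% of all genes were called higher. Glycolysis genes were also called higher in classes with fewer respiratory chain members called higher, 11 of 18 in T or innate lymphoid-like, 10 in dendritic or Langerhans-like and 8 in mast-like cells. Of the 15 Krebs cycle genes at most 1 was called higher in each of these 3 classes. In mural-like cells, Sdhc of complex II was called higher (1.40), whereas Sdha (0.66), Sdhb (0.31) and Sdhd (0.33) did not pass. Of 36 assembly factors tested in mural-like cells, 2 were higher, Cox17 (1.35) and Foxred1 (1.06), and 1 lower, Uqcc2 (-1.42). Of the regulators of mitochondrial biogenesis, Ppargc1b (2.66) and Esrra (1.53) were higher in mural-like cells and the other 9 tested did not pass. Of 9 genes of the hypoxia response tested in mural-like cells, 2 were higher and 2 lower, with a median of -0.57. Beside these, 10.1% and 13.5% of all genes were called higher and lower. In keratinocyte-like cells 12 of 18 glycolysis genes were higher and 1 lower, 3 of 15 Krebs cycle genes were higher, a share near the 18.2% of all genes, with Cs, citrate synthase, at 1.33, and the median of the 4 complex II genes was 0.0014.

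Among fibroblast-like cells, subtypes were gated by further markers and compared with the fibroblast-like cells of no subtype, in the same test over 12856 genes, with 74 members tested and Cox6a2, Cox7b2, Cox8b and Cox8c too low. Dermal sheath-like cells, which carry contractile genes such as Acta2, had 38 members called higher and 0 lower (58 and 0 at an unadjusted p under 0.05, and 55 and 0 with DESeq2), beside 4.13% and 3.01% of all genes, and a median of 0.65 (all genes, -0.08). Called higher were 20 of 35 complex I subunits, 6 of 8 complex III, 7 of 14 complex IV and 5 of 15 complex V subunits. Ndufb8, an accessory subunit of the membrane arm of complex I, was at 259, 360 and 225 CPM against 125, 101 and 78.5 in cells of no subtype, without overlap (log2 fold change 1.25 ± 0.17, adjusted p = 0.000572, edgeR's quasi-likelihood test). Its exons overlap those of Gm20538 on the same strand. Uqcr11 was at 148, 368 and 193 against 62.3, 112 and 73.9 (1.23 ± 0.23, adjusted p = 0.00439), and Ndufb9 at 341, 595 and 336 against 181, 165 and 133 (1.18 ± 0.20, adjusted p = 0.00246). Of the 13 mt- genes 0 were called by edgeR or by DESeq2 (3 higher and 0 lower at an unadjusted p under 0.05 in each), with a median of 0.29. Of 10 genes of the dissociation response 4 were called lower in the same contrast. Of the Krebs cycle genes, 7 of 15 were called higher, of the glycolysis genes 7 of 17 and of the assembly factors 1 of 43.

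The summed members of the dermal sheath-like cells were at 18594, 28243 and 16605 CPM (158, 116 and 34 cells) against 13999, 12640 and 9861 in cells of no subtype. The median dermal sheath-like cell had 1.81%, 2.46% and 1.23% of its UMIs in members. At 3 weeks, 48 of the 116 cells had over 3% of their UMIs in members, against 2 of 158 and 3 of 34 at the other ages. The summed mural markers in the dermal sheath-like cells were 136, 5141 and 3299 CPM, against 54.1, 82.0 and 65.3 in cells of no subtype, and 2 of the 8 mural markers were at 0 in each library; Myh11 and Des led the sum, at 2572 and 2492 at 3 weeks, whereas Rgs5 was at 14.9. The skeletal muscle markers summed to 30.7, 318 and 78.3, with 4, 5 and 7 of 8 markers at 0. Leaving out cells with 2 or more mural markers left 145, 47 and 19 cells, and 9 members were called higher with a median of 0.45; 8 of the 9 were among the 38. The part of these markers in the calls was not tested further. Without the 3-week library 0 members were called (28 higher and 0 lower at an unadjusted p under 0.05 in edgeR's test). The median was 0.48 there. Without the 2-month library, with the cells of 2 or more mural markers kept, 19 were called higher with a median of 0.74.

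**Figure D4:**
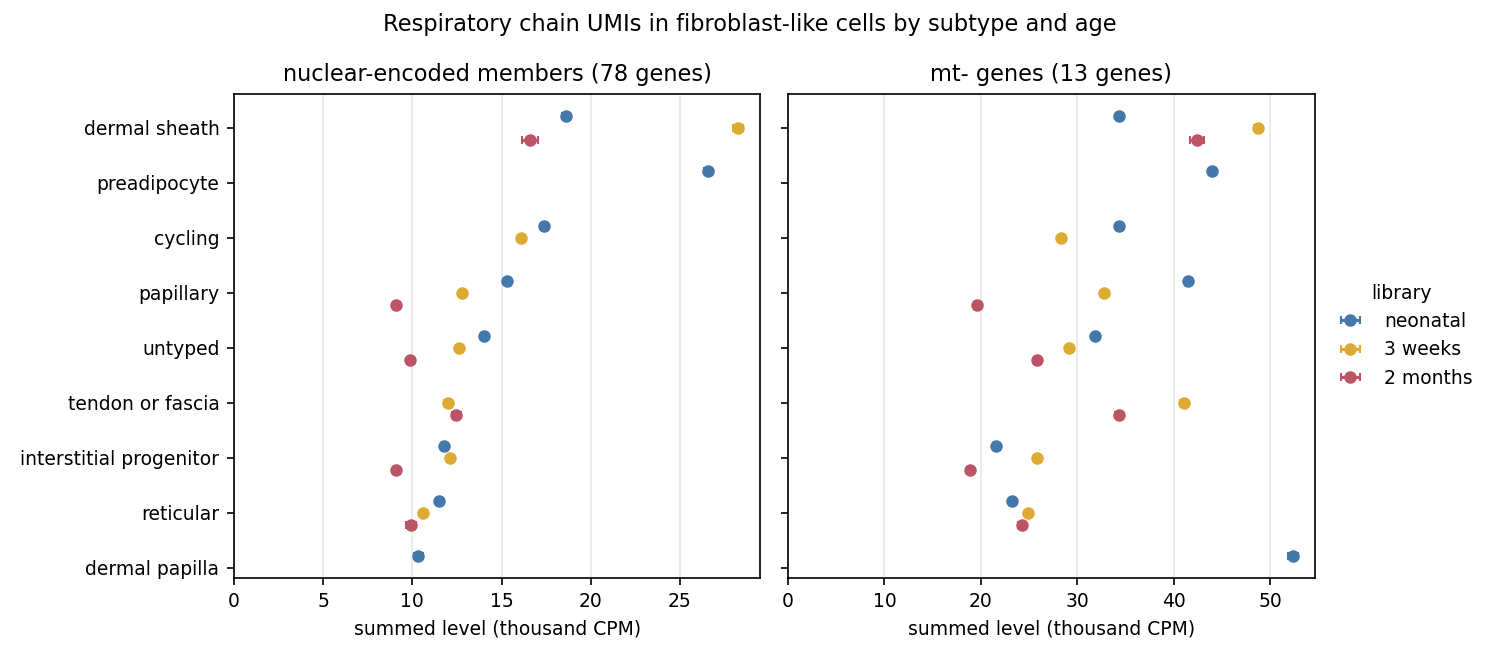
Summed CPM of the 78 members and the 13 mt- genes in each fibroblast-like subtype, 1 point per library with exact 95% Poisson intervals; colours mark the 3 ages. Dermal sheath-like cells stand at 18594, 28243 and 16605, above the cells of no subtype at every age, and neonatal preadipocyte-like cells at 26564.

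Few members were called in the other subtypes. Of the 74 tested, 62 had a positive log2 fold change in cycling cells (median 0.24, all genes -0.09). In interstitial progenitor-like cells 46 did (0.05, -0.03) and in tendon or fascia-like cells 33 (-0.05, -0.08). In reticular-like cells 16 did (-0.13, -0.05) and in papillary-like cells 6 (-0.21, -0.03). Cycling cells had 1 higher and 0 lower (10 and 1 at an unadjusted p under 0.05, and 9 and 1 with DESeq2), beside 6.87% and 2.52% of all genes: Cox7a2 was at 366 and 395 CPM in the neonatal and 3-week libraries against 221 and 189 (log2 fold change 0.73 ± 0.21, adjusted p = 0.0409, edgeR's quasi-likelihood test). Interstitial progenitor-like cells had 0 higher and 1 lower (2 and 1 unadjusted, 0 and 1 with DESeq2), beside 3.07% and 3.45%: Cox6b2 was at 4.45, 4.48 and 3.00 against 16.4, 9.78 and 18.4 (-1.72 ± 0.44). Tendon or fascia-like cells had 0 higher and 1 lower (2 and 5 unadjusted, 1 and 2 with DESeq2), beside 4.48% and 5.20%: Cox6c was at 282 and 272 at 3 weeks and 2 months against 833 and 525 (-1.60 ± 0.44). Reticular-like cells had 0 called (0 higher and 4 lower unadjusted, 0 and 1 with DESeq2), beside 1.72% higher and 1.64% lower over all genes. Papillary-like cells had 0 called (1 higher and 2 lower unadjusted, 0 and 0 with DESeq2), beside 0.0622% and 0.303%. In reticular-like cells Ndufa4l2 was at 59.6, 117 and 320 CPM against 88.8, 859 and 901 in cells of no subtype, and in papillary-like cells it was at 44.8, 950 and 514. These differences in Ndufa4l2 did not pass the test. Neonatal preadipocyte-like cells (110 cells, 1 library, no test) had the highest neonatal sum among the subtypes, at 26564 CPM, with 24 of the 110 cells over 3%. The median such cell had 1.68% of its UMIs in members, below the median neonatal dermal sheath-like (1.81%) and cycling cell (1.73%). Cox8a was at 1325 there. Neonatal dermal papilla-like cells (131 cells) had 10326 for the members and 52363 for the mt- genes, 5.07 mt- UMIs per member UMI.

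Between ages, the values in fibroblast-like cells are ratios of 2 libraries with counting intervals only. From the neonatal stage to 3 weeks, the 71 members at 10 or more CPM in either library had a median log2 ratio of -0.20, the same as all genes (-0.20). A 1.5-fold difference was reached by 3 members upwards and by 11 downwards, beside 14.6% and 26.4% of all genes. The 3 were Ndufa4l2, Ndufa4 and Ndufb7. Ndufa4l2 went from 70.0 to 712 CPM, a log2 ratio of 3.35 (95% interval 3.30 to 3.39), Ndufa4 from 181 to 276 (0.61) and Ndufb7, a complex I subunit, from 46.5 to 70.2 (0.59). The lowest were Atp5g2, from 675 to 342 (-0.98), Cox7a2l, from 326 to 168 (-0.96), and Uqcrfs1, the Rieske iron-sulfur subunit of complex III, from 160 to 83.6 (-0.94). The sign of the member median depended on the scaling. With TMM factors it was 0.0024 (all genes, 0.02), with 8 members higher and 6 lower. Without mt-, ribosomal protein and haemoglobin genes it was -0.44 (all genes, -0.44), with 1 higher and 22 lower. Of 8 genes of the hypoxia response measured over this step, 1 was 1.5-fold higher and 3 lower, with a median of -0.13 in CPM. A link of these genes to Ndufa4l2 was not tested.

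From 3 weeks to 2 months the median log2 ratio of the members was -0.46, against -0.07 for all genes, and it was between -0.38 and -0.48 under the alternatives tried. Of 71 members, 2 reached a 1.5-fold difference upwards and 26 downwards, beside 8.29% and 9.63% of all genes. The medians were -0.44 for complex I, -0.49 for complex III, -0.71 for complex IV and -0.46 for complex V. Atp5g1 went from 219 to 108 CPM (-1.02), Ndufa4 from 276 to 142 (-0.97) and Cox6a1 from 245 to 129 (-0.93). The highest were Cox7a2l, from 168 to 304 (0.86), Cox6b2, from 10.1 to 16.4 (0.70), and Ndufa6, from 105 to 131 (0.31). Cox7a2l thus returned to near its neonatal 326, and Ndufa4l2 was level (712 and 722). Of the mt- genes the median was -0.17, and mt-Co1 went from 4579 to 3633 and mt-Atp6 from 5752 to 4353. Krebs cycle genes had a median of -0.42, complex II genes -0.37 and assembly factors -0.09. Over the same ages the summed dissociation-response genes were 17509, 19038 and 21643 CPM, and the red blood cell markers 2321, 3556 and 914; their part was not tested.

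**Figure D5:**
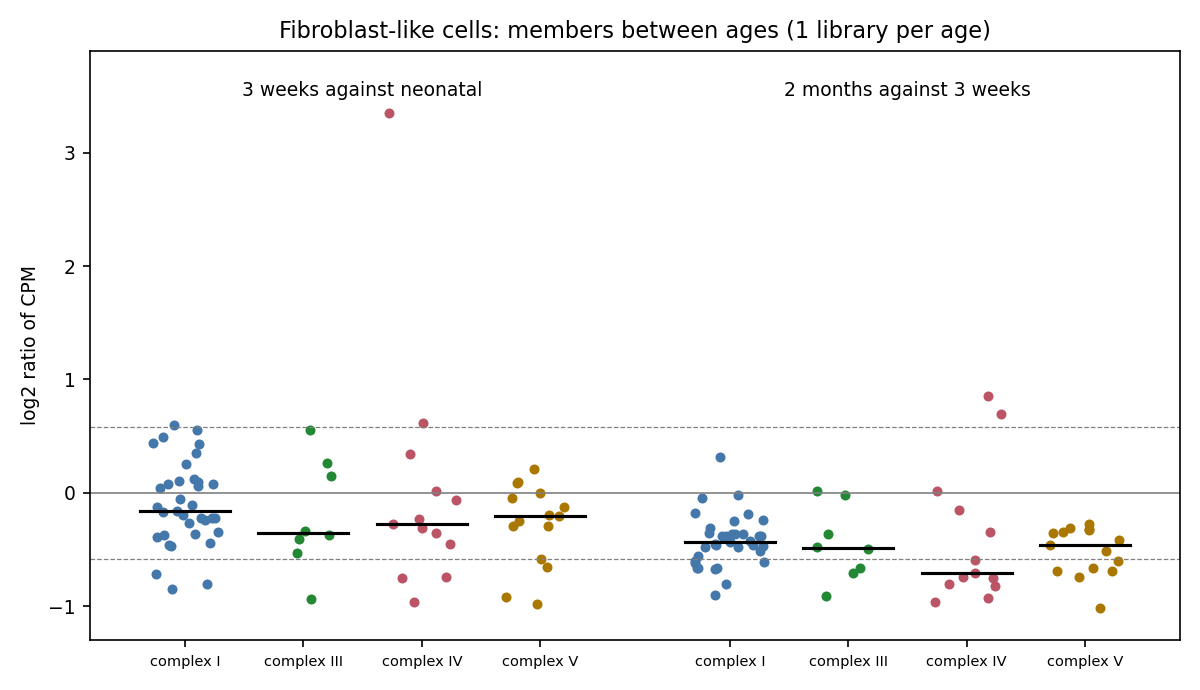
Log2 ratio of each measured member in fibroblast-like cells for both age steps, 1 point per member, by complex, and step. Black bars mark the median of a complex and dashed lines a 1.5-fold difference. From 3 weeks to 2 months the medians of the complexes lie between -0.44 and -0.71, below the -0.07 of all genes.

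The 3 Atp5g genes encode 1 mature protein, so their shares show which gene supplies the transcript. In fibroblast-like cells Atp5g1 made up 22.2%, 31.2% and 22.5% of their UMIs, Atp5g2 62.8%, 48.8% and 57.1% and Atp5g3 15.0%, 20.0% and 20.4%. In keratinocyte-like cells Atp5g1 was at 40.7%, 31.1% and 26.8%. Atp5g1 was called higher there than in fibroblast-like cells (598, 403 and 280 against 238, 219 and 108 CPM; log2 fold change 0.96 ± 0.29, adjusted p = 0.0111, edgeR's quasi-likelihood test), whereas Atp5g2, at 651, 655 and 581, was called in none of the 8 classes. Atp5g3 was called higher in mural-like cells (1.09 ± 0.24), where its share was 22.9%, 30.9% and 29.9%.

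The other classes had their own courses with age. In mural-like cells the median log2 ratio of the members from the neonatal stage to 3 weeks was 0.55, against -0.005 for all genes, with 33 of 72 members 1.5-fold higher and 2 lower, beside 25.3% and 27.1% of all genes. Over the second step it was -0.19, against 0.09. Ndufb7 went from 77.1 to 262 CPM, Ndufa4 from 85.1 to 268 and Cox7a2l from 509 to 240. The gated cells themselves changed in their markers: Myh11 was at 1155, 2896 and 3104 CPM, Acta2 at 4349, 12770 and 15659, Rgs5 at 4262, 4254 and 1538 and Kcnj8 at 346, 9.86 and 12.8. The part of this change in the member values was not tested. In Schwann-like cells the medians over the 2 steps were -0.53 and -0.27, against -0.20 and 0.04 for all genes. In T or innate lymphoid-like cells they were -0.44 and 0.12 (all genes, 0.01 and 0.00), in keratinocyte-like cells -0.11 and -0.39 (all genes, -0.02 and 0.02) and in macrophage or monocyte-like cells -0.11 and -0.39 (all genes, 0.11 and -0.07). Endothelial-like cells were at -0.05 and -0.18 (all genes, 0.02 and -0.04), and dendritic or Langerhans-like cells over the second step at 0.00 (all genes, -0.03). Median UMIs per cell were lower at the later ages in Schwann-like cells (8451, 3354 and 2851) and T or innate lymphoid-like cells (8774, 2867.5 and 2442).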

How the data were processed

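The deposited matrices list, for each barcode, how many UMIs of a gene were counted; per the files' values these are whole-number counts with no normalization. The submitters' processing notes name Cell Ranger 3.0.2, Seurat 2.0 and mm10, and how barcodes were chosen is not given in the sources used here. Barcodes with 300 or more genes, 500 or more UMIs and at most 10% mt- UMIs were kept, 26143 in all, with a median of 8685, 11142.5 and 8529.5 UMIs. A class needed 3 or more of its markers detected and a lead of 0.25 in the share of markers detected over the next list (0.15 for subtypes). UMI counts were summed per library and class, for profiles of 25 or more cells in 2 or more libraries, and tested with edgeR 4.0.16 (TMM scaling, quasi-likelihood test, library as a block, Benjamini-Hochberg). Because each age has 1 library, ages were compared as CPM of summed counts with exact 95% Poisson intervals and no test. Intervals cover counting error only. 3' counts do not scale with transcript length. Scrublet's own threshold marked 2, 211 and 348 barcodes (0.0253% in the neonatal library, where it did not work), so none were removed in the main values and the top 6% in an alternative. Gene positions came from GENCODE M21 on GRCm38, where all 78 members had a position and 5 overlapped an exon of another gene on the same strand. On simulated counts for the keratinocyte contrast (10866 genes), 74 of 100 genes changed 2-fold and 100 of 100 changed 4-fold were called. For the mural contrast (10916 genes), these were 44 and 99 of 100. The simulated counts had the same dispersion for every gene and no differences between ages. How many such changes would be called in the real contrasts was not tested. Members and lists were chosen with earlier results of these data known. Genes named are the paralogue families, the 5 highest in fibroblast-like cells, per contrast up to 3 called members with the largest rise and 3 with the largest fall, per age step the 3 highest and 3 lowest, and of other lists every complex II gene, Cox4i1, Cox4i2 and the largest called; marker genes, Atp5b, Uqcrc2, Atp5g3, Ndufa2 and others beside these were chosen after their values were seen. Alternatives were DESeq2 1.42.0, no filter, stricter gates, at most 5% mt- UMIs, other scalings and each library left out. 1 gene that the naming rule selects is not reported here.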

Additional observations from a re-analysis of the deposited data

Results flagged for a closer look

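The median log2 ratio of the members from the neonatal stage to 3 weeks was 0.55 in mural-like cells, over 72 members, and -0.20 in fibroblast-like cells, over 71. The result is listed here because the 2 medians had opposite signs under the same comparison. The medians of all genes were -0.005 in mural-like and -0.20 in fibroblast-like cells, so the fibroblast-like members did not differ from all genes. The markers of the gated mural-like cells also changed between these ages, and their part was not tested. The difference between the classes was not tested, since each age is 1 library. The fibroblast-like value took the other sign with TMM scaling (0.0024).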

How the results depend on the processing

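Of the main counts and medians recomputed under the alternatives, 135 values held, 50 moved and 1 reversed. A count held if it stayed within 1.5 times, and a median if it stayed within 0.1 on the log2 scale. Of the values for named genes, 483 held, 68 were no longer past the threshold, 22 moved and 0 reversed. With DESeq2 the members called higher were 32 in keratinocyte-like, 50 in mural-like and 9 in cycling cells, those called lower in tendon or fascia-like cells were 2, and 1 was called in reticular-like cells. Without a filter on low counts 3 were called lower in Schwann-like and 8 in endothelial-like cells, and without the library block 3 were called lower in Schwann-like, 3 higher in dendritic or Langerhans-like and 2 higher in macrophage or monocyte-like cells. A class lead of 0.4 gave 10 lower in endothelial-like cells, a subtype lead of 0.3 gave 0 higher in cycling and 1 called in reticular-like cells, removing the top 6% by Scrublet gave 30 higher in keratinocyte-like cells, and at most 5% mt- UMIs gave 4 higher in mural-like cells. Leaving cells with 2 or more cycling markers out of the other subtypes gave 4 higher in the cycling subtype. Leaving out cells with 2 or more mural markers, chosen after seeing the data, also gave 4 higher there. The latter gave 9 higher in dermal sheath-like cells, in a fit that held no 2-month profile of theirs, since 19 cells were left. Leaving out each library in turn gave 0 to 9 lower in Schwann-like, 2 to 19 lower in T or innate lymphoid-like, 14 higher in dendritic or Langerhans-like (1 fit), 0 to 17 lower in endothelial-like, 5 to 32 higher in keratinocyte-like, 0 to 6 higher in macrophage or monocyte-like, 1 to 50 higher in mural-like, 0 higher in cycling (1 fit), 0 to 39 higher in dermal sheath-like, 0 to 1 lower in interstitial progenitor-like, and 0 to 1 called in papillary-like and reticular-like cells. The fit for dendritic or Langerhans-like cells left out the neonatal library and that for cycling cells the 2-month library. These cells had no profile in the library left out. For fibroblast-like cells from the neonatal stage to 3 weeks, TMM scaling gave a median of 0.0024 with 8 members 1.5-fold higher and 6 lower, and scaling without mt-, ribosomal protein and haemoglobin genes -0.44 with 1 and 22; the mean per cell, no filter beyond 3 counts and cells of no subtype each gave 5 higher. From 3 weeks to 2 months a filter at 50 CPM gave 1 higher. With a class lead of 0.4 the mural-like contrast could not be fitted, since 2 of its profiles fell below 25 cells. The cause of these changes was not tested. The class and subtype contrasts are paired by library through the block, and without it the members called higher were 24 in mural-like and 13 in keratinocyte-like cells. For the ages, no paired analysis was possible because each age has 1 library. Depth limits the mast-like cells most, at 858 member UMIs in the 3-week profile.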

Other observations

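Barcodes that belong to no comparison above held members at high levels in places. The sebaceous gate took 3 barcodes at 3 weeks and 2 at 2 months, and their members summed to 53629 and 49557 CPM, above every class tested. The neonatal and 3-week melanocyte-like cells, 11 and 20 in number, were at 24250 and 22696, and the 69 at 2 months at 13663. Among barcodes without a class, 16 of 514, 96 of 1236 and 49 of 1353 had over 3% of their UMIs in members at the neonatal stage, 3 weeks and 2 months. Of the 110 neonatal preadipocyte-like cells, 24 passed the same mark. The 139 Cox8b UMIs of fibroblast-like cells at 2 months compare with 6 and 4 in the other libraries.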
